A study of Homo sapiens with 2 samples.

Results

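The keratin and keratin-associated protein (KRTAP) genes of the human genome were examined for called nucleosome positions in ARPE-19 cells. Members were the protein-coding genes of the GENCODE v44 annotation on chromosomes 11, 12, 17 and 21 whose symbol is KRT followed by a number or begins with KRTAP. The rule found 149 of 19970 protein-coding genes: 55 keratins and 94 KRTAP genes. No measured value entered it. The keratins were described in 3 groups: the epithelial keratins KRT7, KRT8, KRT18 and KRT19, 17 hair keratins (KRT31 to KRT40 and KRT81 to KRT86), and 34 other keratins. ARPE-19 is an established cell line from human retinal pigment epithelium. The study has 2 MNase-seq samples, batch 1 and batch 2, both of interphase cells in normal culture labelled as epithelial cells, with no treatment, genotype or other group to compare. Micrococcal nuclease digests the DNA between nucleosomes, and gel-purified fragments of about 150 bp were sequenced. The deposited list holds 2634347 intervals of 1 bp on the hg38 assembly, which are called positions here, and it does not separate the 2 batches.

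Keratins form the intermediate filaments of epithelial cells. Each filament pairs a type I keratin with a type II keratin, and the type I genes lie together at 17q21, apart from KRT18, which lies with the type II genes at 12q13. KRT8 pairs with KRT18 in simple epithelia, where KRT7 and KRT19 are also made, and retinal pigment epithelium is known to contain KRT8 and KRT18. Keratins of the epidermis include KRT5 and KRT14 in basal cells and KRT1 and KRT10 in the layers above them. Hair keratins build the hair shaft, and KRTAP proteins, encoded by short genes without introns, cross-link them. No expression was measured in this series, so neither the epithelial label nor the state of any of these genes could be checked against RNA.

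With 1 list there was no replicate spread and no test between groups. Values are therefore counts, positions per kb with exact Poisson intervals, shares with Wilson intervals, and ratios of densities with exact binomial intervals, all at 95%. These intervals cover counting error only, and neighbouring positions are not independent. Read depth is unknown, so a stretch without a position may lack a well-placed nucleosome, lack any nucleosome, or lack reads, and these cannot be told apart. On chromosomes 1 to 22 and X the list holds 2632955 positions, 0.904 per kb.

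The 6 sequences that follow show DNA on which the results turn. The first is from hg38: 147 bases centred on the last position before the KRT7 start (chr12:52232805-52232951, plus strand). The others are the 250 bases before the start sites of KRT71 (chr12:52553146-52553395), KRT39 (chr17:40966949-40967198), KRT34 (chr17:41382307-41382556), KRT33B (chr17:41369814-41370063) and KRTAP1-5 (chr17:41027209-41027458), from the RefSeq promoter table of GRCh38.p14, all on the minus strand. All are written 5′ to 3′ along the gene. In KRT7, KRT71 and KRT39 the capitals mark 21 bases centred on the called position. In KRT34, KRT33B and KRTAP1-5, which have no position in these bases, the capitals mark the TATAAA nearest the start.
KRT7: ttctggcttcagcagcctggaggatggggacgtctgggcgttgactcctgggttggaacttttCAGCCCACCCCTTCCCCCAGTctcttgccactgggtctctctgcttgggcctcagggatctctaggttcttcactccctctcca
KRT71: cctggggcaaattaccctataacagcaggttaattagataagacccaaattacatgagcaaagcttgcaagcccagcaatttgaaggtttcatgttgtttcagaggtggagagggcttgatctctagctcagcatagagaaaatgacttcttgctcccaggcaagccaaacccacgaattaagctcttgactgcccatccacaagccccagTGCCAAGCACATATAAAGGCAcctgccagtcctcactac
KRT39: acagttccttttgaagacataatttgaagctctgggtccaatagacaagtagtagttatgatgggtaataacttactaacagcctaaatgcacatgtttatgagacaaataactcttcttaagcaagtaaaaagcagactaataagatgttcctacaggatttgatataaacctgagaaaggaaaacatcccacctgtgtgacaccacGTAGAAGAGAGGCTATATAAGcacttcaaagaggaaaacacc
KRT34: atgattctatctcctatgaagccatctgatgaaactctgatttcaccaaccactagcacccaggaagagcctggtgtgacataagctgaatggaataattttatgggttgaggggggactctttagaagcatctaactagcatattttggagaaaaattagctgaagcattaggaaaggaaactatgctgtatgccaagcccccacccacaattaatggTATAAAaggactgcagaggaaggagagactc
KRT33B: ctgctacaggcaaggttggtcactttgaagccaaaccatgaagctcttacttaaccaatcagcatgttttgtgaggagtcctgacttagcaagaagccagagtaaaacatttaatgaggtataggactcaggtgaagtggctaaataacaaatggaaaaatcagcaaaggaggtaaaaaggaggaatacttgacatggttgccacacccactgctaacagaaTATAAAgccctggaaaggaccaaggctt
KRTAP1-5: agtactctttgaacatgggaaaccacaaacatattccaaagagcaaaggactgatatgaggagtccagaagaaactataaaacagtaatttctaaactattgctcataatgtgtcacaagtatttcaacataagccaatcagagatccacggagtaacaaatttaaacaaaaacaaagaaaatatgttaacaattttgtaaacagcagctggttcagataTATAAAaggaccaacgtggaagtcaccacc

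The epithelial keratins held few positions along their transcripts. KRT7 (MANE transcript of 15.7 kb from chr12:52233243, plus strand) contained 1 position, in intron 6 and 10475 bp from the start. KRT8 (7.89 kb from chr12:52905076, minus strand) contained 1, in exon 1 and 196 bp from the start. KRT18 (3.79 kb from chr12:52949118, plus strand) contained none, and a count of 0 there allows up to 0.792 per kb (3 counts). KRT19 (4.69 kb from chr17:41528308, minus strand) differed from the other 3: it contained 5 positions, all in introns, at 1438, 2845, 3603, 3632 and 4306 bp from the start. Together the 4 genes held 7 positions in 32.05 kb, 0.218 per kb (0.0878 to 0.450), and without KRT19 there were 2 in 27.35 kb, 0.0731 per kb (0.00886 to 0.264).

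Pooled over their transcripts, the other groups held more positions per kb. The 34 other keratins held 408 positions in 281.2 kb, 1.451 per kb (1.314 to 1.599), and each contained at least 1. Hair keratins held 150 in 134.6 kb, 1.114 per kb (0.943 to 1.307), with KRT81 and KRT33B at 0. KRTAP genes held 56 in 77.42 kb, 0.723 per kb (0.546 to 0.939). Pooled in the same way, all 19970 genes held 0.898 per kb. By gene the order differed: the median was 1.278 per kb in other keratins, 1.059 in hair keratins, 0.0953 in epithelial keratins and 0 in KRTAP genes, whose short transcripts often hold no position, against 0.782 over all genes. The density in epithelial keratin transcripts was 0.196 (0.0775 to 0.414) of that in hair keratins and 0.151 (0.0601 to 0.313) of that in the other keratins, and both intervals lie below 1. Without KRT19 these ratios were 0.0656 and 0.0504. Set against the count expected from local base composition, the epithelial transcripts held 0.136 of the expected positions, hair keratins 0.743 and other keratins 1.046.

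Low counts were not limited to the epithelial genes. No position lay in the transcript of 6.58% of all protein-coding genes and of 44.4% of single-exon genes. The 53 of 94 KRTAP genes at 0 stand beside the second of these shares, which is not matched for length. The 94 KRTAP transcripts cover 77.42 kb and the 1113 single-exon ones 2001 kb. Pooled, they held 0.723 and 0.734 positions per kb. Ranked by positions per kb, the 6 lowest keratins were KRT81, KRT18, KRT33B, KRT7, KRT39 and KRT8, of which 3 are epithelial and 3 are hair keratins. KRT81 encodes a hair shaft keratin with near-identical neighbours, and 43.2% of the 50-base words within 2000 bp of its start occur more than once in hg38. The corresponding share for KRT33B was 4.90% and for KRT39 14%. The 0.0638 per kb of KRT7 was matched or undercut by 2.88% of the 6906 genes whose transcript length lay within a factor of 2 of its own. The 0.127 per kb of KRT8 was matched or undercut by 6.99% of 5540 such genes, and 547 of 3522 genes of similar length to KRT18, itself included, held none. For KRT19 this share was 64.2% of 4127 genes, so its density lay above the middle of genes of its length.

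**Figure D1:**
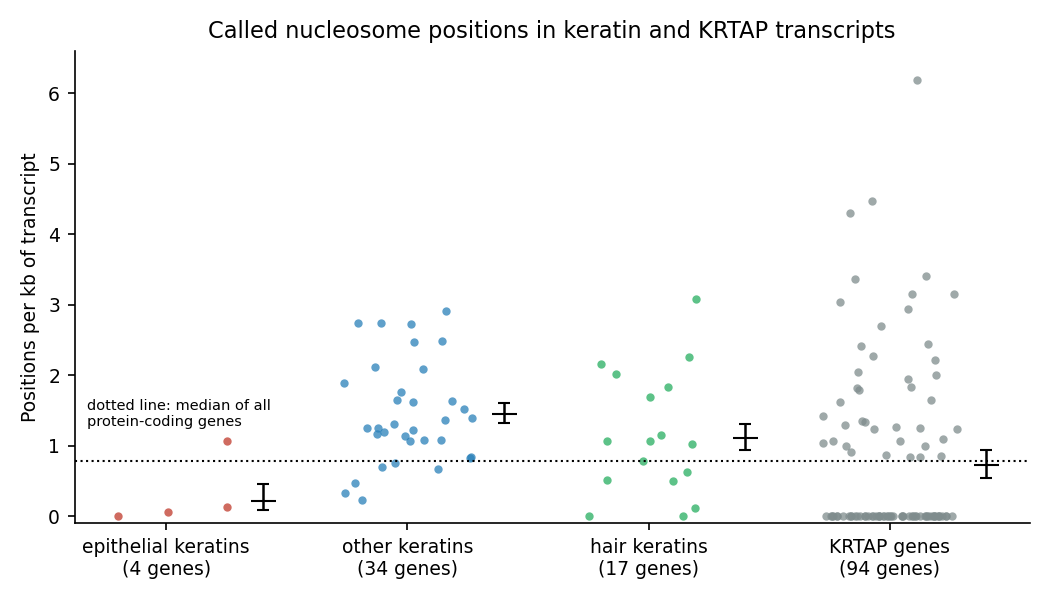
Called positions per kb of transcript (vertical axis) for each of the 149 genes (points, spread sideways for legibility) in the 4 groups, with the pooled density of each group and its 95% Poisson interval (black bars beside the points) and the median of all protein-coding genes, 0.782 per kb (dotted line). The epithelial keratins other than KRT19 sit at or near 0, the other keratins reach 2.912 per kb and 53 of the 94 KRTAP genes sit at 0.

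The other end of the ranking mixed keratins of the hair follicle with others. KRT85, a hair shaft keratin of 7.48 kb, had the highest density of the 55 keratins, with 23 positions or 3.077 per kb (1.95 to 4.62). KRT73 and KRT71, type II keratins of the inner root sheath that surrounds the growing hair, held 32 positions (2.912 per kb) and 23 positions (2.490 per kb). KRT2 and KRT77 ranked between KRT73 and KRT71, with 21 positions (2.744 per kb) and 38 positions (2.734 per kb). KRT28, also of the inner root sheath, held 9 (1.159 per kb). Keratins of stratified epithelia spread over the ranking. KRT17 held 14 positions (2.727 per kb), KRT5 held 11 (1.890), KRT1 held 10 (1.763) and KRT14, in the 36th place from the bottom, held 7 (1.516). KRT16, KRT6C and KRT13, named after their values were seen, held 0.334, 0.756 and 1.079 per kb. KRT10, the partner of KRT1, held 1 position in 4.50 kb (0.222 per kb), matched or undercut by 17.6% of 4015 genes of similar length. VIM, the intermediate filament gene of mesenchymal cells and no member of these clusters, held 1 position in 9.35 kb (0.107 per kb), and 5.29% of 5956 genes of similar length held as few or fewer per kb.

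The stretch without positions over KRT7 was the longest in the type II cluster. No position was listed for 10.8 kb between chr12:52232878 and chr12:52243718, an interval that contains the KRT7 start and whose upstream edge is the KRT7 sequence printed above. In the genome 0.254% of neighbouring positions lay at least that far apart. Over KRT8 the gap was 8.58 kb, which ends at the exon 1 position and leaves the rest of the transcript downstream without a position. That length or more was seen for 0.555% of neighbouring pairs. Both gaps were picked for their length among the 1130 pairs of this cluster, so the low shares follow partly from that choice. The 50-base words that repeat elsewhere made up 2.50% of the KRT7 gap and 10.4% of the KRT8 gap. The 147 bases around the KRT7 upstream position were 59.2% G and C with 2 CG dinucleotides.

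Around the start sites the contrast was smaller. Within 2000 bp of the start, in either direction, KRT7 had 1 position (365 bp upstream), KRT18 had 1 (1868 bp upstream) and KRT19 had 1 (1438 bp downstream). KRT8 had 5, at 1961, 1805, 1300 and 1128 bp upstream and 196 bp downstream. These 8 positions gave 0.5 per kb (0.216 to 0.985). The other keratins had 189 (1.389 per kb, 1.198 to 1.602), from 0 to 14 a gene with a median of 5, and the hair keratins 94 (1.382 per kb, 1.117 to 1.691), from 1 to 14 with a median of 4. The epithelial density was 0.362 (0.152 to 0.742) of that in hair keratins and 0.360 (0.153 to 0.724) of that in the other keratins. Hair and other keratins did not differ beyond counting error here, with a ratio of 0.995 (0.768 to 1.28). The all-gene density was 0.846 per kb with a median of 3 positions. Over that of other protein-coding genes the epithelial density was 0.591 (0.255 to 1.16), an interval that includes 1. So did those with close positions merged (0.283 to 1.29) and with unique words only (0.268 to 1.22). With the expectation from base composition it was 0.462 (0.199 to 0.910), below 1. With all transcript starts it was 0.452 (0.351 to 0.572), where windows can overlap and positions count more than once. Genes whose start lies in a CpG island had 0.708 per kb and a median of 2. Of the 4 epithelial keratins 2 start in an island, against 0 of 17 hair keratins and 1 of 34 other keratins.

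Individual genes spread widely within each group. In the epidermal keratins, KRT14 had 13 positions within 2000 bp and KRT17 had 10, against 6 for KRT5, 4 for KRT1 and 2 for KRT10. The 6 positions of KRT5 lay 624 and 323 bp upstream and 841, 1048, 1438 and 1637 bp downstream, leaving more than 1 kb around the start without one. KRT71 and KRT73 had 14 each. The KRT73 positions included a run at 377, 564, 758 and 852 bp downstream. At the low end KRT12, the keratin of corneal epithelium, had none, KRT6B, a keratin induced in wounded epidermis, had 1 with 32.2% of its words repeated elsewhere, and KRT28, of the inner root sheath, had 2. No position lay within 2000 bp of the start in 10.7% of all genes.

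In the hair keratins KRT34 had 14 positions, KRT82 had 13 and KRT36 had 11, whereas KRT38, KRT39 and KRT33B had 1 each. KRT34 and KRT33B are neighbouring members at 17q21 and both carry TATAAA close to the start (31 and 28 bp upstream in the sequences above), and stood at opposite ends of the group. The upstream positions of KRT36 were at 1642, 1439, 1232, 1060, 853, 671 and 324 bp. KRT33B had its single position 688 bp upstream and none anywhere in its transcript, and the repeated share around its start, 4.90%, was close to the 6.65% around that of KRT34.

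**Figure D2:**
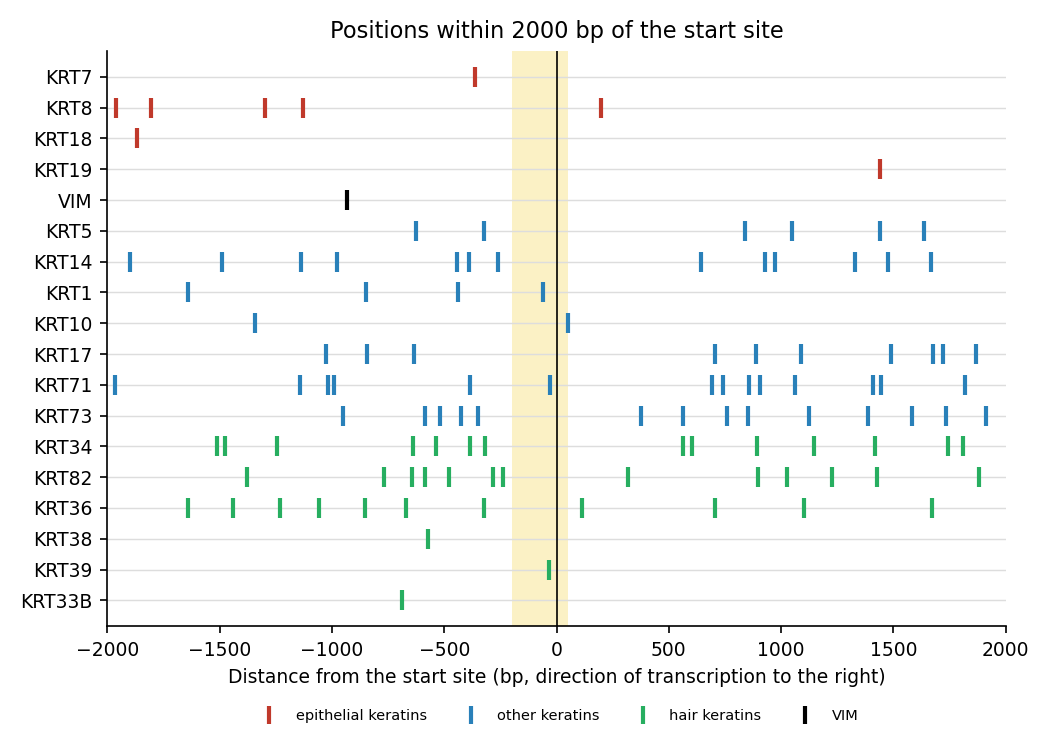
Each tick is 1 called position at its distance in bp from the start site of the gene named at the left (horizontal axis, transcription to the right). The genes are the 4 epithelial keratins (red), VIM (black), and other keratins (blue) and hair keratins (green) named by a fixed rule. KRT12, KRT6B and KRT28, named by the same rule with 0, 1 and 2 positions, are not drawn. The shaded band runs from 200 bp upstream to 50 bp downstream. KRT7, KRT18, KRT19 and VIM show 1 tick each, KRT71, KRT73 and KRT34 show 14 each, and the band holds ticks in KRT1, KRT10, KRT71 and KRT39.

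The window from 200 bp upstream to 50 bp downstream, where an active promoter is usually depleted of nucleosomes, was empty in most members, as it was in most genes. It held no position in any of the 4 epithelial keratins, in 24 of 34 other keratins (70.6%, 53.8 to 83.2), in 16 of 17 hair keratins (94.1%, 73 to 99.0) and in 79 of 94 KRTAP genes (84%, 75.3 to 90.1). The background was 85.8% of all genes, 91.7% of genes whose start lies in a CpG island and 77.9% of genes whose start does not. Only KRT7, KRT19 and KRT72 among the members start in a CpG island under the definition used. No member had 3 or more positions in the window, a count reached by 0.205% of genes. The interval of each group's share includes at least 1 of these backgrounds, and for the 4 epithelial genes it runs from 51% to 100%.

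Among the positions that did fall in the window, that of KRT71 lay 29 bp before the start, and the 21 bases around it contain the TATAAA printed above, 28 bp before the start. The single hair keratin position, in KRT39, lay 32 bp before the start with GGCTATATAAG among the 21 bases around it. KRT1 had a position 60 bp upstream and KRT10 one 49 bp downstream, just inside the window. The density in the window was 0.234 per kb in hair keratins against 1.469 per kb at 1000 to 2000 bp on either side, a ratio of 0.160 (0.00396 to 0.931) that rests on 1 position. With the starts of all annotated transcripts, the hair keratin window density over that of other genes moved from 0.364 to 0.978 (0.318 to 2.28) and the empty share from 94.1% to 81.5%. On that measure other keratins stood at 1.82 (0.872 to 3.35), and at 1.30 (0.624 to 2.40) with the expectation from base composition. With all transcript starts, whose windows can overlap, the value was 1.82 (1.29 to 2.51). The ratio of window density to that at 1000 to 2000 bp was 0.753 (0.351 to 1.44) in other keratins. It was 0.981 (0.533 to 1.68) in KRTAP genes and 1.07 in genes without an island start. By type, the 26 type II keratins had 3 positions in the window and a ratio of 0.269 (0.0544 to 0.812), and the 29 type I keratins had 8 and a ratio of 0.874 (0.364 to 1.82).

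Promoter sequences of the hair keratins, KRTAP genes and part of the other keratins were compared. None of the 4 epithelial keratins entered this comparison. The RefSeq promoter table holds 114 members, 113 of them with the start site used here (33 keratins and 80 KRTAP genes), each as 300 bases from 250 bp before the start to 50 bp after. The motif TATAAA, on either strand, occurred in 11 of 14 hair keratins (78.6%), 64 of 80 KRTAP genes (80%) and 10 of 19 other keratins (52.6%), against 11.5% of all 35116 promoters of this length. The motif GGGCGG, on either strand, occurred in 28.6% of hair keratins, 1.25% of KRTAP genes and 10.5% of other keratins, against 45% of all promoters. The CG dinucleotide occurred a median of 2 times in each of these 3 groups and 14 times in all promoters. Median G and C content was 45.2% in hair keratins, 42.7% in KRTAP genes and 45.7% in other keratins, against 58.7% in all promoters. The motif shares were not corrected for it. Between 45 and 16 bp upstream, along the gene, TATAAA occurred in 57.1%, 43.8% and 42.1% of these groups, in the same order, against 2.38% of all promoters. Neither motif is part of the other, and each GGGCGG holds 1 CG. A match is a description of the letters and no evidence that a factor binds there.

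For KRT8 the table gives a start 21.4 kb upstream of the MANE start used here, at chr12:52926469. Its window from 200 bp upstream to 50 bp downstream held 1 position and 4 lay within 2000 bp, against 0 and 5 at the MANE start.

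Downstream of the start, where the first nucleosome of many transcribed genes is placed, few keratins had a position. Between 75 and 200 bp downstream a position was listed in 4 of 55 keratins (7.27%, 2.86 to 17.3), among them the KRT8 position at 196 bp, and in 13 of 94 KRTAP genes (13.8%, 8.26 to 22.2). The background was 18.8% of all genes and 21.3% of genes without an island start. The KRTAP genes at 21q22.1 had a position there in 9 of 33 cases (27.3%, 15.1 to 44.2), and the 16 at 21q22.3 in none.

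The low counts extended over the first exon. Keratin first exons held 13 positions, 0.459 per kb (0.245 to 0.785), middle exons 1.146 per kb (0.863 to 1.49) and last exons 1.597 per kb (1.22 to 2.06). In genes with 3 or more exons and no island start the order was different: first exons held 1.240 per kb, middle exons 1.365 and last exons 0.980. The first exon of a keratin is long, with a median of 520 bp, and encodes the head and the beginning of the rod domain. First exons of 400 to 700 bp in 516 other genes without an island start held 1.047 per kb, and keratin first exons held 0.439 of that (0.231 to 0.763). A position lay in the first exon of 12 of 55 keratins (21.8%), against 39.1% of those 516 genes. Keratin first exons had a median G and C content of 60.8%, middle exons 55.6% and last exons 53.3%. Against the count expected from base composition they held 0.293, 0.692 and 1.146 of the expected positions, in the same order.

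**Figure D3:**
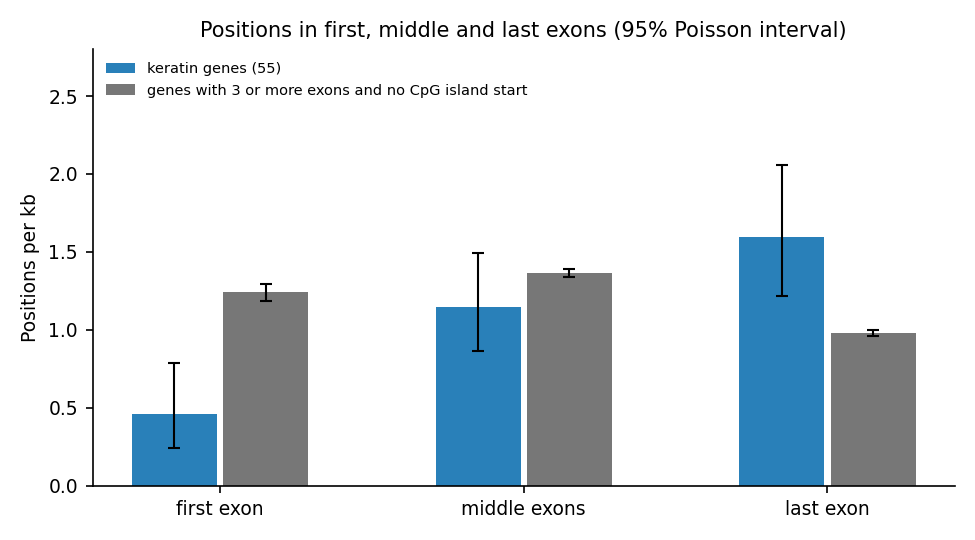
Called positions per kb (vertical axis, from 0) in first, middle and last exons of the 55 keratin genes (blue) and of genes with 3 or more exons and no CpG island start (grey), with 95% Poisson intervals. Keratin first exons stood at 0.459 per kb, below their last exons at 1.597, whereas the grey bars for first and last exons are 1.240 and 0.980.

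By exon number, in the 24 type II keratins with 9 exons, exon 1 was low but density did not rise steadily after it. Exon 1 held 4 positions, 0.306 per kb (0.0834 to 0.784). Exon 5, with a median length of 165 bp, held 12 positions in 8 genes, 3.03 per kb (1.57 to 5.29), and exon 9 held 43 in 18 genes, 1.92 per kb (1.39 to 2.59). Exons 2, 3, 4, 6 and 7 held 1.559, 2.049, 1.302, 1.323 and 1.131 per kb. Exon 8, with a median of 35 bp, held none, which says little at that length. In 25 type I keratins exon 1 held 0.526 per kb and exon 6 held 0.5445. In hair keratins last exons held 22 positions, 2.042 per kb, and first exons 4, 0.506 per kb. In the other keratins first, middle and last exons held 0.429, 1.468 and 1.492 per kb. Exons as a whole held 1.124 positions per kb in the keratins and introns 1.308, a ratio of 0.859 (0.700 to 1.05), against 1.135 in all multi-exon genes. In the epithelial keratins 6 of the 7 positions were intronic, 5 of them in KRT19.

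Along the chromosomes the members form 6 clusters, which together held 2864 positions in 2860 kb. The type II cluster at 12q13 (chr12:52168996-52952906, 27 keratins) held 1131, 1.443 per kb (1.360 to 1.529), against 1.097 in the 500 kb on either side and 0.805 in the rest of chromosome 12. The ratio to the flanks was 1.32 (1.21 to 1.43). This pools unlike sides, with 1.3 per kb before the cluster and 0.894 after it. The type I cluster at 17q21 (chr17:40654665-41624842) holds 28 keratins and 34 KRTAP genes and had 823 positions, 0.848 per kb, a ratio of 0.794 (0.724 to 0.870) to its flanks. This direction turned when base composition set the expectation, where the ratio was 1.12 (1.02 to 1.23). The cluster was 42.8% G and C, and the 12q13 cluster 49.1%.

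Of the KRTAP clusters without keratins, that at 21q22.1 (chr21:30281309-31038476, 33 genes, 37.2% G and C) had the lowest density, 520 positions or 0.687 per kb, and a ratio to its flanks of 0.687 (0.617 to 0.765). With the expectation from base composition this ratio was 0.948 (0.851 to 1.05). Here too the sides were unlike, with 0.796 per kb before the cluster and 1.202 after it. The KRTAP10 and KRTAP12 cluster at 21q22.3 (chr21:44538981-44698044) had 159 positions, 1.000 per kb, and a ratio of 0.745 (0.628 to 0.879) to its flanks. With the expectation from base composition this was 0.878 (0.740 to 1.04), an interval that includes 1. All 16 of its genes lie inside the gene TSPEAR, which is transcribed from the minus strand. The KRTAP5 clusters differed little from their surroundings. That at 11p15.5 (chr11:1584342-1697755, 6 genes) had 1.384 per kb, 0.953 (0.803 to 1.12) of its flanks, and that at 11q13.4 (chr11:71527267-71603353, 5 genes) 0.973 per kb, 1.10 (0.857 to 1.40) of its flanks. In these clusters 13.5% and 17% of 50-base words are repeated, against 3.45% to 6.63% in the other 4.

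**Figure D4:**
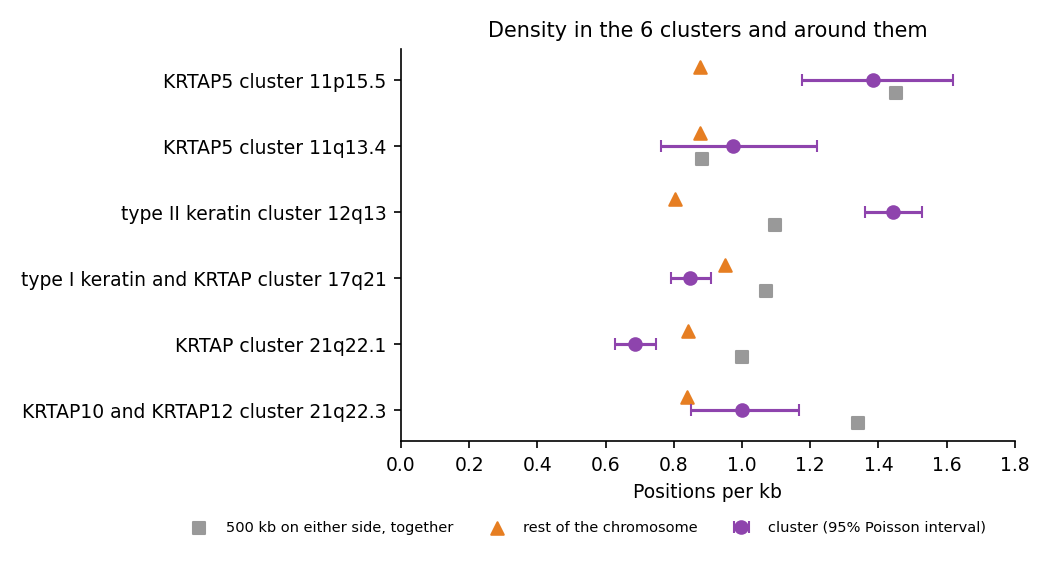
Called positions per kb (horizontal axis) in the 6 clusters (purple, with 95% Poisson intervals), in 500 kb on either side of each (grey squares) and in the rest of the chromosome (orange triangles). The 12q13 cluster, at 1.443 per kb, lies above both references, and the 21q22.1 cluster, at 0.687 per kb, below both.

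By block, the density within 12q13 was lowest at both ends of the cluster and highest between them. The block from KRT71 to KRT73, inner root sheath keratins, held 2.143 positions per kb (1.824 to 2.502), and the adjoining block from KRT2 to KRT78 held 1.706 (1.532 to 1.895). Hair keratins from KRT86 to KRT82 held 1.426 (1.246 to 1.626), and the block from KRT75 to KRT5 held 1.140 (0.937 to 1.374). The end blocks contain the epithelial keratins: KRT80 to KRT7 held 0.625 (0.467 to 0.820) and KRT8 to KRT18 0.879 (0.651 to 1.163). Relative to the expectation from base composition these end blocks held 0.395 and 0.561, and the KRT71 to KRT73 block 1.418. Across 78 bins of 10 kb the counts ran from 1 to 34 with a median of 14. The bin with the KRT7 start had 1, the bin with the KRT8 start 5, and those with the KRT71 and KRT73 starts 34 and 32. Low bins were not limited to the end blocks, and the hair keratin block was uneven. Its bins with the KRT86 and KRT81 starts had 9 positions each and the bin between them 4. Those with the KRT85 and KRT82 starts had 26 and 23.

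At 17q21 the block of KRTAP genes from KRTAP3-3 to KRTAP17-1 held 0.574 positions per kb (0.494 to 0.663). It contains the longest gap of all 6 clusters, 15.3 kb between chr17:41116350 and chr17:41131639, over KRTAP4-11 and KRTAP4-12. In that gap 11.8% of words are repeated, and a gap as long was seen for 0.0929% of neighbouring pairs in the genome. It was picked as the longest of 2858 pairs, so the low share follows partly from that choice. A second gap of 13.7 kb in the same block had 41.0% of its words repeated. The block from KRT222 to KRT40, 12 genes without an epithelial keratin, held 0.788 per kb (0.696 to 0.890), below the 0.879 of the KRT8 to KRT18 block at 12q13. The hair keratins from KRT33A to KRT36 held 1.052 per kb (0.892 to 1.231), the block from KRT13 to KRT19 held 1.354 (0.953 to 1.866), and that from KRT9 to KRT17, with KRT14 and KRT16, held 1.712 (1.394 to 2.080). KRT19 therefore lies in a block of higher density than those of KRT7, KRT8 and KRT18. Across 97 bins the counts ran from 0 to 24 with a median of 7, and the bins of the KRT34 and KRT14 starts had 24 each.

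**Figure D5:**
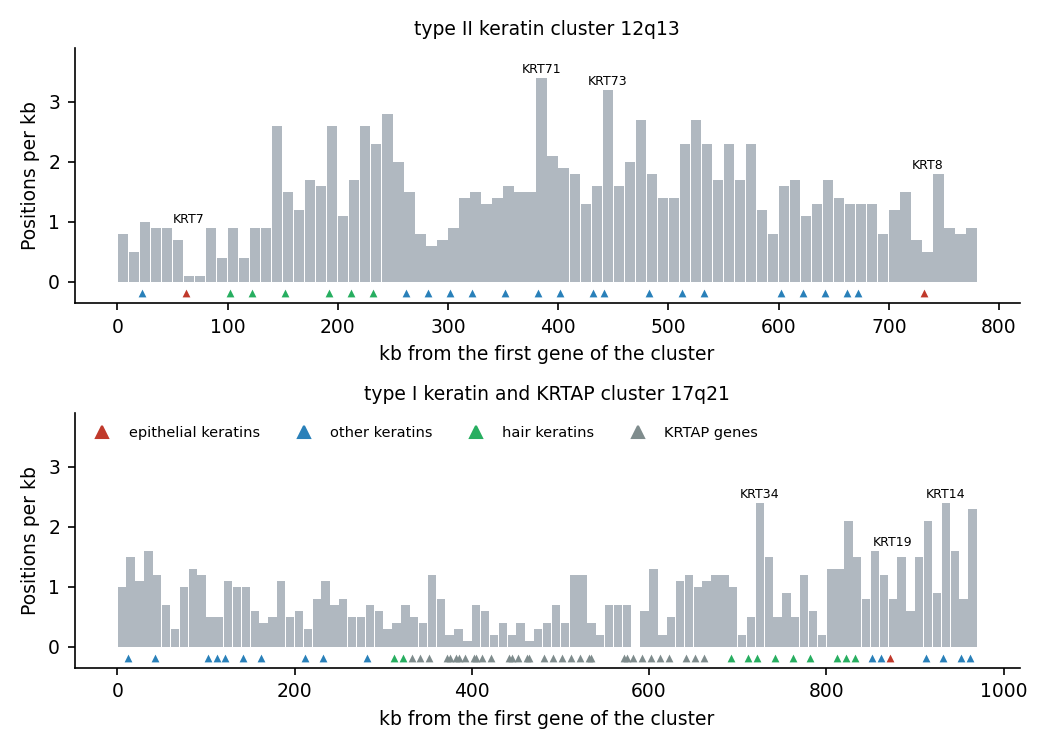
Called positions per kb in bins of 10 kb (vertical axis) along the 12q13 and 17q21 clusters (horizontal axis, kb from the first gene), with triangles for the bins that hold start sites of epithelial keratins (red), other keratins (blue), hair keratins (green) and KRTAP genes (grey); the KRT18 start lies past the last whole bin. The bin of the KRT7 start had 1 position, that of KRT71 had 34, and the run of grey triangles in the lower panel sits over low bars.

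KRTAP genes had fewer positions around their starts than the hair keratins, 267 within 2000 bp or 0.710 per kb (0.627 to 0.800), a ratio of 0.514 (0.405 to 0.657). Against the count expected from base composition the contrast was smaller. KRTAP genes held 0.747 of the expected positions there and hair keratins 1.024. The median was 3 a gene, as in all genes, the range 0 to 9, and 11 of 94 had none (background 10.7%). KRTAP10-12 had 9, and KRTAP5-1 and KRTAP5-6 had 7 each, whereas KRTAP1-5, KRTAP10-2 and KRTAP3-2 had none. KRTAP genes lie close together, and 12 of them share part of their 2000 bp with another member, so some positions count for more than 1 gene. Of those without a position, 10 of the 11 lie at 17q21, where the 34 KRTAP genes had 0.471 per kb. By family, the 12 KRTAP4 genes had 0.375 per kb within 2000 bp (0.222 to 0.593), with 6 of them at 0, and the 11 KRTAP5 genes, split between the chromosome 11 clusters, had 1.136 (0.843 to 1.498), with at least 2 each. The 12 KRTAP10 genes had 0.958 (0.701 to 1.278). Repeated words exceeded 10% around the starts of 31 of the 94 KRTAP genes. For the KRTAP4 genes at 0 they made up 25.2% (KRTAP4-7), 23.6% (KRTAP4-9), 21.3% (KRTAP4-11) and 19.2% (KRTAP4-8). The shares were 8.52% for KRTAP4-12 and 4.02% for KRTAP4-4. How far lost reads lower the family values was not tested. The 15 KRTAP positions in the start window lay in 15 different genes, from 185 bp upstream in KRTAP1-4 to 36 bp downstream in KRTAP5-7. Those closest to the start were 8 bp upstream in KRTAP10-11 and 8 bp downstream in KRTAP9-1. KRTAP19-5, named after its value was seen, had the highest transcript density of all members, 6.186 per kb, from 3 positions in 485 bp.

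Between the members, stretches of the 6 clusters without a protein-coding gene held 0.951 positions per kb and the member genes 1.155, a ratio of 0.823 (0.756 to 0.897). Base composition turned this to 1.19 (1.10 to 1.30). The clusters differed: the ratio was 1.138 (1.009 to 1.285) at 12q13, 0.837 (0.716 to 0.982) at 17q21 and 0.478 (0.320 to 0.745) at 21q22.1. It was 2.083 (0.797 to 7.742) at 11p15.5 and 1.542 (0.901 to 2.752) at 11q13.4. The 21q22.3 cluster has no stretch without a protein-coding gene, so it entered the pooled ratio through its member genes alone. There, all bases outside member genes gave 2.19 (1.083 to 5.165) over member genes. Counted so in all 6 clusters, the pooled ratio was 0.829 (0.762 to 0.903).

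The distance between neighbouring positions had a median of 551 bp in the 6 clusters and 549 bp in the genome. It was 386 bp at 12q13 and 966 bp at 21q22.1. Distances of 150 to 220 bp, about 1 nucleosome with its linker, made up 16.3% of 2858 pairs (15 to 17.7) against 14.2% in the genome. The share was 20.3% (18 to 22.7) at 12q13 and 9.63% (7.38 to 12.5) at 21q22.1. Pairs under 60 bp apart, too close for separate nucleosomes on 1 DNA molecule, made up 7.63% (6.71 to 8.66) against 9.0% in the genome.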

How the data were processed

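MNase-seq of 2 ARPE-19 samples was available as 1 deposited list of 1-bp intervals with chromosome, start and end and no score or depth, per the file headers. Reads were aligned with Bowtie2 to hg38 (GRCh38) per the submitters' processing notes; the caller, its threshold, duplicate handling and the pooling of the batches are not given in the sources used here. Read depth is therefore unknown.

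Positions on chromosomes 1 to 22 and X were counted after removing 4 repeated rows. Start sites, exons and transcripts came from GENCODE v44, 1 transcript per gene (MANE for 148 of the 149 members). Neighbouring members within 500 kb formed a cluster. CpG islands were called on hg38 as stretches of at least 500 bp with at least 55% G and C and a CpG ratio of at least 0.65. The expectation from base composition sums, over bases, the density that the whole genome shows at the same G and C content of the surrounding 200 bp, in classes of 2%. Repeated sequence is the share of 50-base words that occur more than once in hg38 on either strand, which marks where reads of near-identical copies cannot be placed. It exceeded 10% around the start in 41 members.

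Genes are named by rule: KRT7, KRT8, KRT18, KRT19, KRT5, KRT14, KRT1, KRT10, KRT17 and VIM, the 3 members with most and the 3 with fewest positions within 2000 bp of the start in the other 3 groups, and any member with 3 or more positions in the start window. Genes at the ends of the transcript ranking, blocks and gaps were named after their values were seen. Members, groups and lists were chosen with earlier results of these data known. Alternatives were merging of positions closer than 100 bp, unique words only, the expectation from base composition, other windows, other flanks and all transcript starts. Counting code was tested on simulated data. Python 3.11.15, numpy 2.4.6, scipy 1.17.1, pandas 2.3.3, numba 0.67.0 and matplotlib 3.10.9 were used.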

Additional observations from a re-analysis of the deposited data

Results flagged for a closer look

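The list also holds 1388 rows on 12 sequences other than chromosomes 1 to 22 and X, above the 3 counts that a count of 0 allows. Of these, 5 lie on 2 alternate sequences of chromosome 17. They entered none of the comparisons of keratin and KRTAP genes and were not analysed here.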

How the results depend on the processing

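Of 106 alternative values for 24 results, 96 moved by less than the counting interval of the main value, 7 moved by more, and 3 turned from a main value whose interval excluded 1. Of the 96, 5 crossed 1 from main values whose intervals include 1. The KRTAP start density over other genes went from 0.987 to 1.10 with positions merged and 1.19 with the shorter window. The ratio to flanks went from 0.953 to 1.03 (unique words) and 1.06 (1 Mb flanks) at 11p15.5, and from 1.10 to 0.929 (1 Mb flanks) at 11q13.4. With the expectation from base composition, the ratio of 17q21 to its flanks turned from 0.794 to 1.12, the density within 2000 bp of KRTAP starts over other genes from 0.840 to 1.05, and the density between genes over that in member genes from 0.823 to 1.19, and the ratio of 21q22.1 to its flanks moved from 0.687 to 0.948. With the shorter window, from 150 bp upstream to the start, the share of windows without a position moved from 70.6% to 85.3% in other keratins and from 84% to 90.4% in KRTAP genes. The median distance in the clusters moved from 551 bp to 653 bp with positions closer than 100 bp merged and to 650 bp with such distances left out. Alternatives on transcripts and on first over last exons were chosen after seeing the data. Without KRT19, the epithelial transcript density fell from 0.196 to 0.0656 of hair keratins and from 0.151 to 0.0504 of other keratins. Without each of KRT7, KRT8 and KRT18 the first ratio was 0.329, 0.223 and 0.222. First over last exons stayed at 0.256 to 0.326. Under unique words, the all-gene reference was not restricted, since uniqueness was computed only in and around the clusters. Leaving out each batch could not be run, since the list does not separate them. No paired analysis was possible because there is 1 group and 1 list. With the starts of all transcripts, the hair keratin start density over other genes moved from 0.364 to 0.978. With 7 positions in 4 genes, the epithelial values rest on few counts.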

Other observations

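A stretch upstream of the start was chosen after the values were seen, so its counts are a description of that choice, and the difference between keratin types in it was not tested. A position lay 400 to 240 bp upstream in 12 of 26 type II keratins (46.2%, 28.8 to 64.5) and in 5 of 29 type I keratins (17.2%, 7.60 to 34.5), with intervals that overlap. KRTAP genes had one there in 19 of 94 cases (20.2%, 13.3 to 29.4). The background was 15.8% of all genes and 17.3% of genes without an island start. The genes with such a position include KRT5 (323 bp), KRT71 (386 bp) and KRT73 (349 bp), and KRT7, an epithelial keratin of the same cluster, at 365 bp.

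Other genes of the filament system lie outside the clusters. None of 15 other intermediate filament genes, VIM and the lamin genes among them, had a position in the window from 200 bp upstream to 50 bp downstream, and 13 of the 15 start in a CpG island. Among 15 linker and desmosome genes 11 had none there, and among 10 genes of the cornified envelope and the hair follicle, none of which starts in an island, 6 had none. Over all genes 85.8% had none, 91.7% of those with an island start and 77.9% of the others. The median count within 2000 bp was 5, 3 and 5 in these lists, against 3 in all genes. PLEC, which links keratin filaments to the cell membrane, held 0.0409 positions per kb of transcript, and NES, the neural filament gene, 3.24.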
